A study of Mus musculus with 2 samples.

Results

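The potassium channel genes of the mouse tongue were taken as every row of the deposited mRNA-Seq table whose gene symbol begins with *Kcn*, and this gave 82 rows, each with a symbol of its own, of 18498 rows in all. The table compares the circumvallate papillae (CvP), the taste papillae at the back of the tongue, with epithelium of the tongue that carries no papillae (Epi). Each tissue is represented by 1 library of poly(A) RNA, pooled from at least 20 male C57BL/6J mice aged 12 to 30 weeks that had normal chow. The animals carried no mutation or treatment in the labels, and the question asked was which genes stand out in the CvP when it is set against the epithelium around it. Levels are RPKM, which are reads scaled to the length of the exon model and to the mapped reads of the library, so they can be set side by side between genes of different length. With 2 libraries and no replicate of either tissue, every difference describes these libraries, and no test of the tissues was possible.

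Potassium channels set the resting potential of a cell and return it to rest after excitation, and in epithelia they recycle potassium and drive secretion. The pore-forming subunits fall into voltage-gated channels with a voltage sensor (*Kcna* to *Kcnh*, *Kcnq*, *Kcns* and *Kcnv*), inward rectifiers (*Kcnj*), two-pore domain leak channels (*Kcnk*) and channels opened by calcium or sodium (*Kcnma*, *Kcnn*, *Kcnt*, *Kcnu*), while *Kcnab*, *Kcne*, *Kcnip* and *Kcnmb* encode accessory subunits. Taste cells fire action potentials and use potassium channels to repolarise, and the glia-like type I cells of the taste bud are thought to clear potassium that the excited cells release.

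All pore subunits share a short selectivity filter, in which a Gly-x-Gly stretch lines the path of the ion. The filter was searched in the longest coding sequence among the GENCODE M1 transcripts of each gene, as Thr or Ser, any residue, Gly, then Tyr, Phe, Leu or Val, then Gly. It was found in 66 of 66 pore subunits and in 0 of 15 other *Kcn* genes, so it divided the members in the way their symbols do. Sequences of pore genes around which the results turn follow in coding orientation, with the bases of Gly-x-Gly in capitals. Positions are NCBI37/mm9.
*Kcnj1*, residues 144 to 146, Gly-Tyr-Gly, chr9:32204284-32204316, plus strand: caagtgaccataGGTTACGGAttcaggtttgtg
*Kcnj5*, residues 151 to 153, Gly-Tyr-Gly, chr9:32130132-32130164, minus strand: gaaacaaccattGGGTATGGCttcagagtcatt
*Kcnk1*, first filter, residues 119 to 121, Gly-Tyr-Gly, across the junction of exons 1 and 2: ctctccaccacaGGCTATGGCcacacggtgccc
*Kcnk1*, second filter, residues 227 to 229, Gly-Leu-Gly, chr8:128549223-128549255, plus strand: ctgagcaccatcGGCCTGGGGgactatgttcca
*Kcnk6*, first filter, residues 108 to 110, Gly-Tyr-Gly, across the junction of exons 1 and 2: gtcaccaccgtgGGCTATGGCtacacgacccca
*Kcnk6*, second filter, residues 216 to 218, Gly-Leu-Gly, chr7:30010543-30010575, minus strand: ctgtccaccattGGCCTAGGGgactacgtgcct
*Kcnk7*, first filter, residues 107 to 109, Gly-Tyr-Gly, across the junction of exons 1 and 2: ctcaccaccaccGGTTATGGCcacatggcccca
*Kcnk7*, second filter, residues 214 to 216, Gly-Leu-Gly, chr19:5706375-5706407, plus strand: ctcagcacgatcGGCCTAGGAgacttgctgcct
Among the 14 inward rectifiers the pattern matched once in 13 and at 2 places in *Kcnj15*, as Gly-Val-Gly and as Gly-Tyr-Gly. The pattern matched 2 times in 9 two-pore subunits and 3 times in 2. It also matched 2 times in 2 of the 34 voltage-gated genes, so a match in any of these groups need not be the filter of a pore. *Kcnk1*, *Kcnk6* and *Kcnk7* share the order of a Gly-Tyr-Gly filter followed by a Gly-Leu-Gly filter.

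The summed RPKM of the *Kcn* genes was higher in the CvP than in the Epi, and a few genes held much of the CvP sum. The RPKM of the 82 rows summed to 171.15 in the CvP and to 57.87 in the Epi, a ratio of 2.96. The sum over all rows of the table had a ratio of 0.829, and 7 keratinocyte genes alone brought 32273 and 77386 to it. By row, the CvP value was higher in 75% of all rows, and the median ratio of rows with at least 1 in both libraries was 1.31. Relative to that median the ratio of the *Kcn* sums was 2.25. *Kcne3*, *Kcnj1*, *Kcnj5*, *Kcnk1* and *Kcnq1* made up 45.9% of the CvP sum and 3.63% of the Epi sum. Without these 5 genes the ratio of the sums was 1.66. In the Epi, the two-pore genes *Kcnk6* and *Kcnk7* alone made up 41.7% of the sum, against 11.5% in the CvP, and without them the ratio was 4.49. Both sets of genes were picked from these same values, so leaving each out had to shift the ratio in the direction seen.

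Most *Kcn* genes were near the lower limit of the measurement in both tissues. The median RPKM of the 82 rows was 0.185 in the CvP against 0.02 in the Epi, against 3.74 and 1.94 over all rows. An RPKM of at least 1 was found for 27 members in the CvP, which is 32.9% against 66.7% of all rows, and for 11 members in the Epi, which is 13.4% against 57.2% of all rows. Of these, 10 members reached 1 in both tissues, 17 in the CvP alone and 1, *Kcnj12*, in the Epi alone. Of all rows, 10363 reached 1 in both, and how many did so in a single tissue was not worked out. All rows also reached 1 more often in the CvP, so the split of 17 and 1 only describes these members. The remaining 54 members were below 1 in both, with values of at most 0.97 in the CvP against 0.61 in the Epi.

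**Figure D1:**
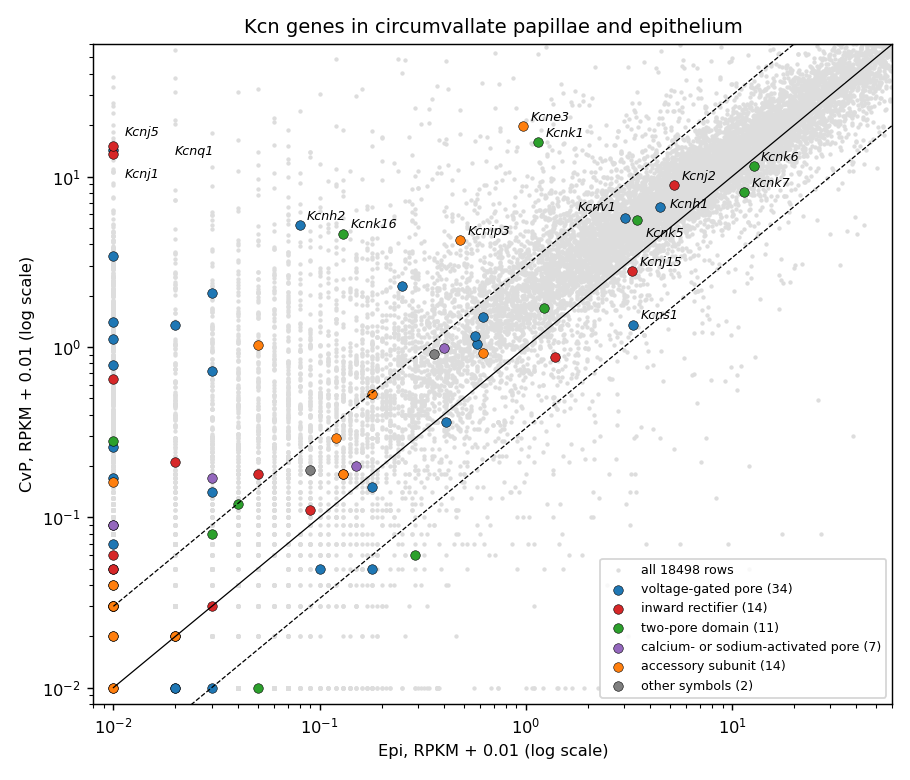
RPKM of each row of the table in the Epi (horizontal axis) and the CvP (vertical axis), both on log scales after adding 0.01 so that listed zeros can be drawn. Grey points are all rows, coloured points the 82 *Kcn* rows by group, the solid line marks equal RPKM and the dashed lines a 3-fold ratio, and rows beyond the axes are not drawn. *Kcnj1*, *Kcnj5* and *Kcnq1* sit at the left edge, listed at 0 in the Epi, while *Kcnk6* and *Kcnk7* lie just below the line of equal RPKM, although *Kcnk6* moves above it when both libraries are rescaled to the same sum.

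The limits stated for the candidate genes of the original study asked for more than 10 RPKM in the CvP and more than 3 times the Epi value. They were met by 5 of 82 members, or 6.1%, against 435 rows, or 2.35% of all rows. These were *Kcne3*, *Kcnk1*, *Kcnj5*, *Kcnq1* and *Kcnj1*. Just outside the limits, *Kcnh2*, *Kcnk16* and *Kcnip3* had ratios above 3 but CvP RPKM values of 5.15, 4.61 and 4.23. At a CvP RPKM above 3 these genes and *Kcnh3* also passed, which made 9 of 82 members, or 11.0%, against 1120 rows, or 6.05%. The row count at this lower minimum equals the number of candidate genes that the study reports, while the stated limits give fewer rows. The stated limits therefore do not settle which members belong to the candidate list of the study. *Kcnk6* had a CvP RPKM of 11.49 and a ratio of 0.904.

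Among the 22 members with a mean RPKM of at least 1 over both libraries, 11, or 50.0%, had a CvP/Epi ratio above 3, against 13.1% of all rows with such a mean. Most *Kcn* levels were low, and in rows within the same span of mean RPKM, from 1 to 12.1, the share was 17.7%. No member with such a mean had an Epi/CvP ratio above 3, against 1.71% of all rows. Since 11 of the 22 members had an Epi RPKM below 1 and passed this minimum only through the CvP, 10 of the 11 above 3 among them, the count of 11 is not a count over all *Kcn* genes. With no minimum, 45 of the 80 members above 0 in either library, or 56.2%, had a CvP/Epi ratio above 3, against 26.1% of rows, and 6, or 7.5%, had an Epi/CvP ratio above 3, against 4.7%. Several members in both counts had about 1 or 2 reads in one library and a listed 0 in the other. The *Kcn* rows also had lower levels than all rows, so these shares are not matched for level.

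The ratios of the 22 members fell into 2 ranges. From *Kcns1* at 0.405 up to *Kcnh6* at 2.44 lay 11 members, and the other 11 began at *Kcnip3* with 9.0, so none of the 22 had a ratio between 2.44 and 9.0. Members below this minimum did fall there, such as *Kcnn4* with 2.49 and *Kcnma1* with 8.0, so the gap describes the rows kept and not all *Kcn* genes. The share of members higher in the CvP stood close to that of all rows on some scales and not on another. As deposited, the CvP value was the higher one in 17 of 22, or 77.3%, against 77.4% of all rows with a mean of at least 1, and after rescaling to the same sum it was so in 19 of 22, or 86.4%, against 86.9%. Relative to the median ratio of all rows it was 77.3% against 54.9%. The median log2 ratio, with 0.1 RPKM added to both values, was 1.98, against 0.47 for all rows with such a mean and 0.66 for the rows in the same span of levels. This median lies in the gap between both ranges and fell to 0.65 when the members of low level were included, against 0.50 for all rows taken the same way.

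**Figure D2:**
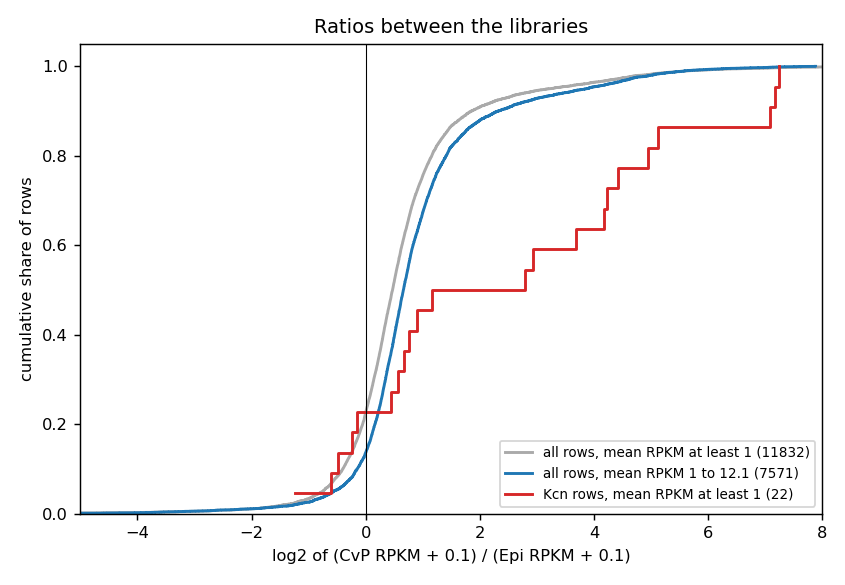
Cumulative share of rows (vertical axis) against log2 of the CvP/Epi ratio with 0.1 RPKM added to both values (horizontal axis). The red steps are the 22 *Kcn* rows with a mean RPKM of at least 1, the grey curve the 11832 rows with such a mean, and the blue curve the 7571 rows between 1 and the highest *Kcn* mean of 12.1. The *Kcn* steps follow the other curves on the left and then leave them, with a flat stretch on the right side of 0 where none of these 22 rows lies.

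The RPKM scale itself was not centred between the tissues. Over the 10363 rows with an RPKM of at least 1 in both libraries the median CvP/Epi ratio was 1.31, or 0.39 on the log2 scale. Rescaling both libraries to the same sum moves this log2 median to 0.66. Relative to the deposited median the same count of 11 members had a ratio above 3, and 1 member, *Kcns1*, had an Epi/CvP ratio above 3. Over all rows with a mean of at least 1, 1550 had a CvP/Epi and 202 an Epi/CvP ratio above 3 as deposited, and 1158 and 330 did so relative to the median.

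A listed Epi RPKM of 0 together with a CvP value above 0 was found in 28 of 82 members, or 34.1%, against 9.42% of all rows. Many of these had only a few reads in the CvP as well. Among members with a mean RPKM of at least 1, 4 of 22 were listed at 0 in the Epi, or 18.2%, against 0.997% of all rows with such a mean. These were *Kcnj5*, *Kcnq1*, *Kcnj1* and *Kcnh3*, and they passed the minimum through the CvP alone, so the share is a description of the rows kept. The converse, a listed 0 in the CvP and a value in the Epi, was found in *Kcna5*, *Kcnf1*, *Kcnk15* and *Kcnv2*, the last 3 named here after their values were seen. Their Epi values were 0.01, 0.02, 0.04 and 0.01, which stand for 1 to 3 reads.

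The depth behind these zeros was worked out from the steps between the lowest RPKM values of short rows, which gave 28373653 mapped reads for the CvP and 27908511 for the Epi. Read numbers estimated this way give the intervals below, which are exact 95% Clopper-Pearson intervals of a ratio and cover counting error only. By the listed length, a listed 0 can hide at most 1 read for *Kcnj5* and none for *Kcnj1*, *Kcnq1* and *Kcnh3*, because values are given to the second decimal. An Epi count of 0 allows up to 3 reads. At the shorter of the listed and the annotated length these would be an RPKM of 0.0350 for *Kcnj1*, 0.0239 for *Kcnj5*, 0.0355 for *Kcnq1* and 0.0300 for *Kcnh3*. For 15 members the listed length was more than 1.5 times the longest annotated transcript, and the shorter length was then used. *Kcnj1*, *Kcnj5*, *Kcnk1*, *Kcnk4*, *Kcnk16* and *Kcnc1* were among them. The shorter length gives fewer estimated reads and wider intervals than the listed one.

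**Figure D3:**
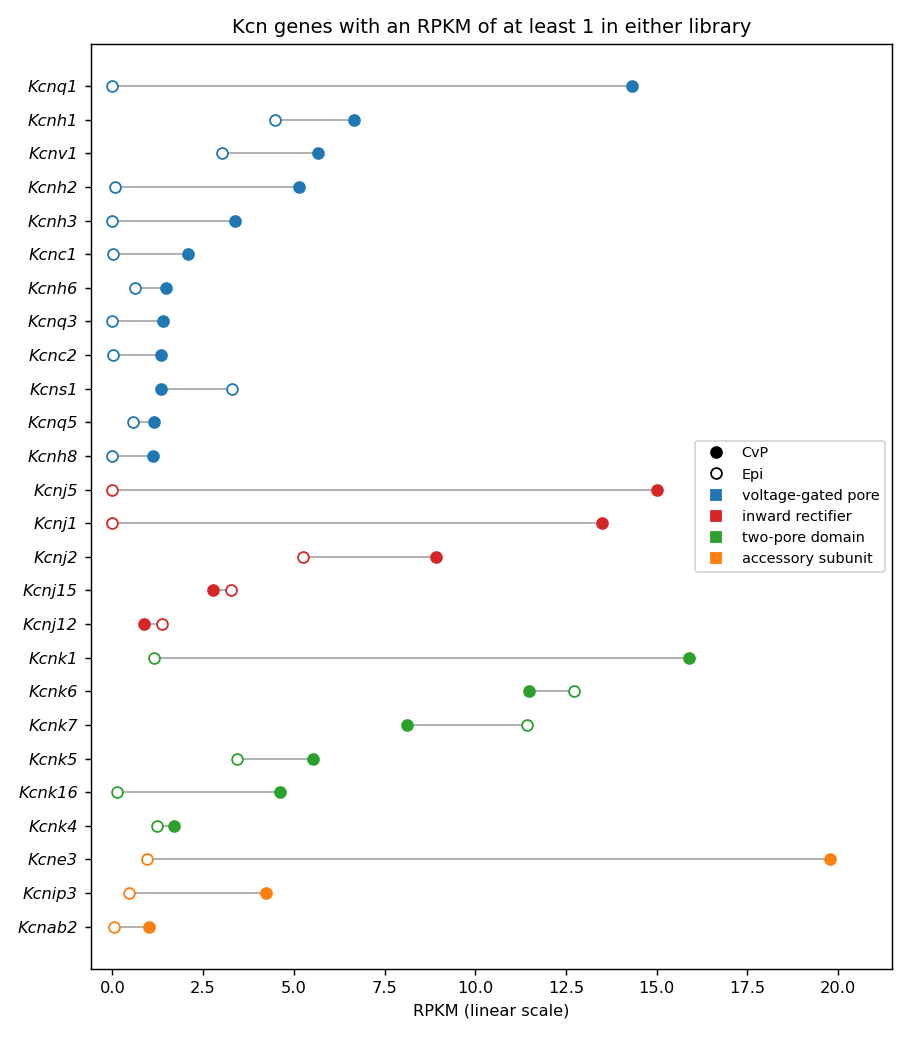
RPKM (horizontal axis, linear scale) of 26 of the 28 *Kcn* genes that reached 1 RPKM in the CvP, the Epi or both, by group and then by CvP level, with the CvP value as a filled and the Epi value as an open circle joined by a line. Each circle is 1 pooled library, so there are no error bars. Long lines to an open circle near 0 mark *Kcnq1*, *Kcnj5*, *Kcnj1*, *Kcnk1* and *Kcne3*, and the open circle is to the right for *Kcns1*, *Kcnj15*, *Kcnj12*, *Kcnk6* and *Kcnk7*, of which *Kcnj15* and *Kcnk6* change sides when both libraries are rescaled to the same sum.

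The inward rectifiers, which pass potassium more easily into the cell than out of it and hold the resting potential, summed to 42.3 in the CvP against 10.05 in the Epi over 14 rows, a ratio of 4.21. *Kcnj5* encodes a G protein-gated subunit (GIRK4) that usually pairs with the product of *Kcnj3*, a gene with no row here. Its RPKM was 15 in the CvP and it was listed at 0 in the Epi. *Kcnj1* encodes Kir1.1 (ROMK), the channel that secretes potassium in the kidney and is known in type I taste cells. Its RPKM was 13.50 in the CvP and it was also listed at 0 in the Epi. Both genes thus stood among the 5 highest *Kcn* genes of the CvP, without a listed read in the Epi. In the CvP they had about 1914 and 1176 reads by the shorter length, or 4133 and 2335 by the listed one.

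*Kcnj5* and *Kcnj1* are neighbours. *Kcnj5* lies at chr9:32122368-32151822 on the minus strand and *Kcnj1* at chr9:32180003-32206779 on the plus strand, so they are transcribed away from each other from starts 28.18 kb apart. Another 5 pairs of *Kcn* genes lay within 150 kb of each other or overlapped, and in none of these were both members above an RPKM of 1 in the CvP except *Kcnk5* and *Kcnk16*, which lie 80.973 kb apart on the same strand of chromosome 14. *Kcnk5* had 5.52 in the CvP against 3.44 in the Epi, a ratio of 1.6, and *Kcnk16* had 4.61 and 0.12. The *Kcnj* pair thus shared its pattern between the tissues, and the *Kcnk* pair did not.

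**Figure D4:**
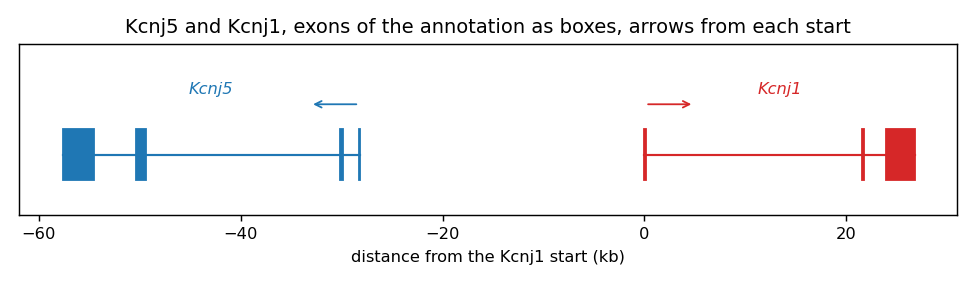
Map of *Kcnj5* and *Kcnj1* on chromosome 9, with distance from the *Kcnj1* start in kb on the horizontal axis. Boxes are exons of the GENCODE M1 annotation and arrows show the direction of transcription from each start, which point away from each other across a gap of 28.18 kb.

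The stretches just upstream of the starts listed for *Kcnj1*, *Kcnj5* and *Kcnq1* are shown because these 3 genes met the limits and were listed at 0 in the Epi. Each is taken from the 250 bases before the start in the direction of the gene, from NCBI37/mm9. For *Kcnj5* the first 143 of these are printed, because RefSeq places its start inside the window and the last 107 bases within the transcript. Capitals mark a match, on either strand, to a motif that was searched for. The motifs were the octamer of POU factors, written ATGCAAAT, the letters TATAAA of the TATA box, an E-box with the letters CAGCTG, and a motif of Sox factors, read as ACAATGG.
*Kcnj1*, chr9:32179753-32180002, plus strand: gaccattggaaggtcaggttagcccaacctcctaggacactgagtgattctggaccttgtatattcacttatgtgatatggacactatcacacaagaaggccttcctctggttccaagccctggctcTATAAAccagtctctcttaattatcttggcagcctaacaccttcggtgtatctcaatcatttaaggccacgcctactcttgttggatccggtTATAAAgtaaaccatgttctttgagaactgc
*Kcnj5*, chr9:32151930-32152072, minus strand: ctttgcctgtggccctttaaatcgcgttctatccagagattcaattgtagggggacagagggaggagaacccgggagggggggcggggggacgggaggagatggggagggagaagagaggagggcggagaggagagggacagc
*Kcnq1*, chr7:150292909-150293158, plus strand: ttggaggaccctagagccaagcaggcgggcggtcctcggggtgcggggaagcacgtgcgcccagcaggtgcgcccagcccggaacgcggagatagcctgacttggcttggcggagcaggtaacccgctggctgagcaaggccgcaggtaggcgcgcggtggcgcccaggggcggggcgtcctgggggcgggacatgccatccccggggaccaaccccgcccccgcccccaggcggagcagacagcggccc
The windows of 250 bases did not resemble each other in composition. *Kcnj1* had a GC content of 44.8% with 3 CpG, *Kcnj5* of 62.0% with 12 CpG and *Kcnq1* of 74.8% with 25 CpG, against medians of 58.4% and 13 over 18040 windows of the table. *Kcnj1* held TATAAA at 2 places and the other two windows held none of the motifs. Over all windows, 1.5% held the octamer, 8.60% TATAAA, 12.4% CAGCTG and 1.88% ACAATGG. Which start is used in these tissues was not measured, and the RefSeq promoter windows on GRCm38.p6 begin elsewhere for both *Kcnj* genes.

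*Kcnj2* encodes Kir2.1, a strong rectifier of many excitable cells. Its RPKM was 8.91 in the CvP against 5.25 in the Epi, a ratio of 1.70 with an interval of 1.55 to 1.85. *Kcnj15*, which encodes Kir4.2, had 2.77 in the CvP against 3.28 in the Epi, a ratio of 0.845 (0.739 to 0.967), but a ratio of 1.02 once both libraries were rescaled to the same sum. *Kcnj12*, which encodes Kir2.2, had 0.86 and 1.37, a ratio of 0.628 (0.446 to 0.877). These 3 rectifiers were thus present at similar orders of magnitude in both tissues, unlike *Kcnj1* and *Kcnj5*. *Kcnj10*, the Kir4.1 channel of glia, had only 0.20 in the CvP against 0.01 in the Epi. The other 8 rectifier rows below 1 had at most 0.64 in the CvP against 0.08 in the Epi.

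The two-pore domain channels, which carry leak currents, were the group most evenly divided between the tissues. Over 11 rows they summed to 47.81 in the CvP against 30.42 in the Epi, a ratio of 1.57, and they made up 27.9% of the *Kcn* sum in the CvP and 52.6% in the Epi. *Kcnk1*, *Kcnk6* and *Kcnk7* encode the related TWIK subunits whose filters are shown above, yet their ratios ran from 13.9 down to 0.710. *Kcnk1* (TWIK-1) had 15.89 in the CvP against 1.14 in the Epi, a ratio of 13.9 (11.0 to 18). *Kcnk6* (TWIK-2) had 11.49 and 12.71, a ratio of 0.904 (0.839 to 0.975), which turned to 1.09 when both libraries were rescaled to the same sum. *Kcnk7* had 8.11 and 11.42, a ratio of 0.710 (0.607 to 0.829).

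*Kcnk6* and *Kcnk7* ranked first and second among the *Kcn* genes of the Epi, where *Kcnk1* ranked 11. In the CvP the order was *Kcnk1*, *Kcnk6*, *Kcnk7* at ranks 2, 6 and 8. *Kcnk16* encodes TALK-1, a channel opened by alkaline pH and best known in pancreatic islets. It had 4.61 in the CvP against 0.12 in the Epi, a ratio of 38.4 that rests on about 3 Epi reads, so its interval ran from 12.6 to 186. From the listed length *Kcnk16* had about 8 Epi reads and an interval of 18.7 to 87.1. *Kcnk5* encodes TASK-2, which also responds to alkaline pH, and its ratio of 1.6 had an interval of 1.39 to 1.85. *Kcnk4*, which encodes the mechanosensitive TRAAK, had 1.69 and 1.22, a ratio of 1.39 with an interval of 0.981 to 1.98. With reads from the listed length this interval was 1.07 to 1.81, so whether it included 1 depended on the length used. *Kcnk2*, which encodes TREK-1, was one of the few genes with more signal in the Epi, at 0.05 in the CvP against 0.28 in the Epi, a ratio of 0.179 (0.0530 to 0.461) on about 5 and 28 reads.

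The voltage-gated pore genes summed to 51.17 in the CvP against 13.81 in the Epi over 34 rows, a ratio of 3.71, and 14 of the 34 reached an RPKM of 1 in the CvP against 3 in the Epi. The *Kcnq* subfamily, whose channels open slowly and stay open near rest, had the widest gap among the subfamilies with a CvP sum above 10, at 19.18 against 0.80, a ratio of 24.0. All 5 *Kcnq* rows were higher in the CvP, as were 75% of all rows of the table. *Kcnq1* encodes the pore that works with *Kcne* subunits in heart and in secretory epithelia, and it lies at chr7:150293159-150612947 on the plus strand. Its RPKM was 14.32 in the CvP, on about 1231 reads, and it was listed at 0 in the Epi.

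The antisense transcript *Kcnq1ot1*, a long noncoding RNA of the imprinted region that starts inside *Kcnq1*, had 0.18 in the CvP against 0.08 in the Epi, a ratio of 2.25 (1.89 to 2.69). Its row of 83.437 kb makes this about 426 and 186 reads. The sources used here do not say that reads were counted by strand, so reads of overlapping genes on opposite strands cannot be told apart. *Kcnq3* had 1.39 in the CvP and was listed at 0 in the Epi, and *Kcnq5* had 1.15 and 0.56, a ratio of 2.05 (1.63 to 2.61), with 237 of its exon bases shared with an annotated antisense transcript. Both subunits can form the M-type current of neurons.

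The *Kcnh* subfamily holds the ether-à-go-go channels, and all 7 of its rows were higher in the CvP, as were 75% of all rows. Its sums were 18.09 and 5.16. *Kcnh1* (EAG1) was the highest, at 6.66 in the CvP against 4.48 in the Epi, a ratio of 1.49 (1.37 to 1.62). *Kcnh2* (ERG1), which repolarises the heart, had 5.15 and 0.07, a ratio of 73.6 (38.3 to 177) on about 617 and 8 reads. *Kcnh3* (ELK2) had 3.39 in the CvP and was listed at 0 in the Epi. The subfamily was thus not uniform, since its gene with the highest level was also its gene with the smallest ratio among these. *Kcnh6* (ERG2) had 1.49 and 0.61, a ratio of 2.44 (1.79 to 3.39), and *Kcnh8* (ELK1) had 1.11 in the CvP and was listed at 0 in the Epi.

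The *Kcnc* channels, which shut action potentials off quickly in fast-firing neurons, were low. The CvP value was higher in 3 of their 4 rows, against 75% of all rows. After rescaling to the same sum it was higher in 4 of 4, against 83.0% of all rows. *Kcnc1* had 2.07 in the CvP against 0.02 in the Epi, a ratio of 103 (43.5 to 413) on about 456 and 4 reads. *Kcnc2* had 1.34 and 0.01, a ratio of 134 on about 2 Epi reads, with an interval of 31.8 to 964. From the listed length *Kcnc1* had about 7 Epi reads and an interval of 49.3 to 255. Both genes thus had few estimated reads in the Epi.

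The electrically silent subunits *Kcnv1* and *Kcns1*, which form no channel alone and modify *Kcnb* channels, differed in direction. *Kcnv1* had 5.68 in the CvP against 3.01 in the Epi, a ratio of 1.89 (1.66 to 2.14). *Kcns1* had 1.34 and 3.31, a ratio of 0.405 (0.318 to 0.510), and was the gene furthest toward the Epi among the 22 with a mean of at least 1.

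The *Kcna* channels (Shaker) and *Kcnd* channels (Shal), which carry much of the delayed and the transient current of neurons and heart, were near 0 in both tissues. The 5 *Kcna* rows summed to 0.22 in the CvP against 0.28 in the Epi, with *Kcna5* at 0 and 0.01, and the 3 *Kcnd* rows to 0.16 and 0.02, with *Kcnd2* at 0.02 and listed at 0. *Kcna2* and the two-pore gene *Kcnk9* have no row and were not analysed here. The calcium- and sodium-activated pores were low as well, with sums of 1.65 and 0.67 over 7 rows. *Kcnma1*, which encodes the large-conductance BK channel, had 0.16 in the CvP against 0.02 in the Epi, and *Kcnn4*, the intermediate-conductance channel of many epithelia and blood cells, had 0.97 and 0.39, a ratio of 2.49 (1.5 to 4.31).

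The accessory subunits had the widest ratio of the groups, at 27.14 in the CvP against 2.49 in the Epi over 14 rows, a ratio of 10.9. Of the 14, 12 were higher in the CvP while none was higher in the Epi, or 1 relative to the median ratio of all rows. Over the whole table the CvP value was higher in 75% of rows, or in 59.4% relative to that ratio. Several of the 12 rested on about 1 read in the CvP. Most of the accessory sum in the CvP was *Kcne3*, a single-span subunit that holds the *Kcnq1* channel open in secretory epithelia. *Kcne3* lies at chr7:107325180-107333379 on the plus strand and was the highest *Kcn* gene of the CvP, at 19.78, against 0.96 in the Epi. Its ratio was 20.6 (14.8 to 30.0). All 4 *Kcne* rows together summed to 19.85 in the CvP, so the other 3 added little. *Kcnip3*, a calcium-binding protein that joins *Kcnd* channels and also acts in the nucleus, had 4.23 and 0.47, a ratio of 9.0 (6.34 to 13.0). *Kcnip1* had 0.01 in the CvP and was listed at 0 in the Epi. *Kcnab2*, which joins *Kcna* channels, had 1.01 and 0.04, a ratio of 25.3 (9.41 to 92.9) on about 101 and 4 reads, and shares 125 exon bases with another transcript of the same strand.

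**Figure D5:**
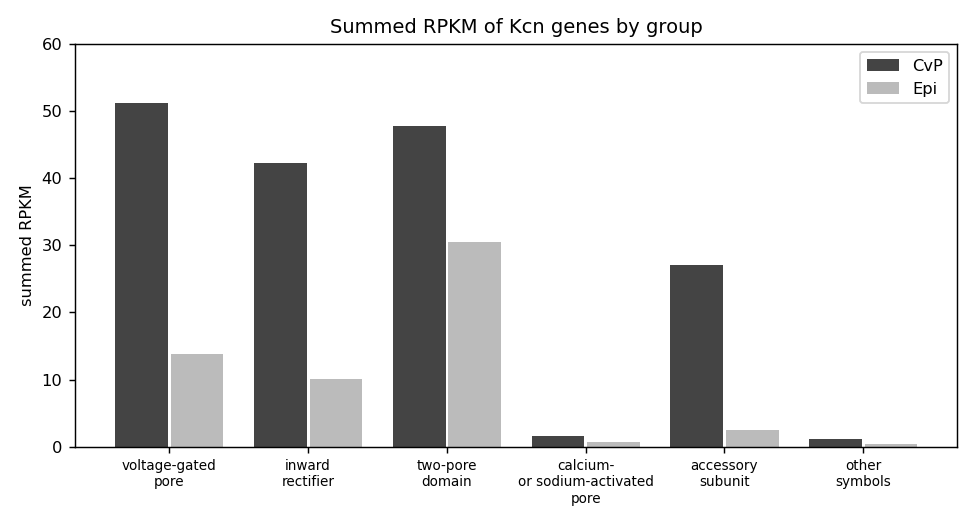
Summed RPKM (vertical axis, from 0) of the *Kcn* rows in each group, with the CvP as dark and the Epi as light bars and 1 library behind each bar. The voltage-gated, inward rectifier and accessory groups stand higher in the CvP, at 51.17, 42.3 and 27.14, and the two-pore group reaches 47.81 in the CvP against 30.42 in the Epi.

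Set side by side, accessory subunits and their usual pores were matched in level for one combination and not for others. *Kcne3* and *Kcnq1* were 19.78 and 14.32 in the CvP. *Kcnip3* at 4.23 compared with 0.16 for all *Kcnd* rows together, and *Kcnab2* at 1.01 with 0.22 for the *Kcna* rows that the table holds. Among 9 genes of other families that bind potassium channels, 7 had a row, and 7 of 7 were higher in the CvP, against 75% of all rows. The highest was *Lrrc26*, which encodes a subunit that lets BK channels open at rest, at 40.42 in the CvP against 0.24 in the Epi, a ratio of 168 (84.9 to 390), while *Kcnma1* was at 0.16. *Amigo1*, which joins *Kcnb* channels, had 5.75 and 2.23, a ratio of 2.58. Whether the proteins meet in one cell cannot be read from pooled tissue.

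Other genes of potassium transport were described in the same way. Of 37 genes in these lists, the channel partners included, 33 had a row, with the CvP value higher in 28 and the Epi value in 4, or in 27 and 5 relative to the median ratio of all rows. Over the whole table the CvP value was higher in 75% of rows, or in 59.4% relative to that ratio. Among the 14 with a mean RPKM of at least 1, 7 had a CvP/Epi ratio above 3 and 0 an Epi/CvP ratio above 3, against 13.1% and 1.71% of all rows with such a mean, and their median log2 ratio was 1.61 against 0.47. *Atp1b3*, a beta subunit of the sodium pump, had 263.4 in the CvP against 136.61 in the Epi, a ratio of 1.93. Pumps and their small regulators accounted for 16 rows, with the CvP value higher in 12 and the Epi value in 3.

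Of the cotransporters, 5 of 6 rows were higher in the CvP, or 4 of 6 relative to that median, against 75% and 59.4% of all rows. *Slc12a2*, which brings sodium, potassium and chloride into the cell, had 45.25 and 6.47, a ratio of 6.99, and *Slc12a7*, which lets potassium and chloride out, had 13.54 and 1.95, a ratio of 6.94. The 4 cyclic nucleotide-gated *Hcn* genes, whose channels pass sodium and potassium on hyperpolarisation, were all higher in the CvP, against 75% of all rows. *Hcn4* had 2.22 in the CvP and was listed at 0 in the Epi.

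The libraries also differed in marker genes of other cell types, and these values stand beside every *Kcn* difference above. In bulk RNA, fewer cells of a type and less RNA per cell cannot be told apart. Marker genes of type II taste cells summed to 370.75 in the CvP against 22.77 in the Epi, with 7 of 7 higher in the CvP and 2 listed at 0 in the Epi, and those of type III cells to 96.05 and 1.04, also 7 of 7, with 4 listed at 0 in the Epi. The 3 type I genes, of which *Kcnj1* is one, summed to 69.37 and 8.35, with 2 of 3 higher in the CvP. Keratinocyte genes were abundant in both, at 32273 and 77386, with 5 of 7 higher in the Epi, or 7 of 7 relative to the median ratio. Immune genes were higher in the CvP in 7 of 7 rows, at 153.94 and 6.40. Genes of skeletal muscle (4.48 and 49.91, 0 of 7 higher in the CvP), salivary gland (22.29 and 410.09, 2 of 6), fibroblasts (27.52 and 128.48, 1 of 6) and smooth muscle (2.29 and 4.37, 1 of 7) had the larger sums in the Epi. Nerve and glia genes came to 19.88 and 50.61, although 7 of 8 were higher in the CvP, or 6 of 8 relative to the median ratio, and endothelial genes to 0.37 and 0.34. Several sums rest mostly on a single gene. *Dcn* gave 26.07 and 127.62 of the fibroblast sums, while *Pdgfra* went the other way at 1.30 and 0.07. *Lyz2* gave 131.64 of the immune sum in the CvP. The highest salivary gene gave 313.42 of the Epi sum and the highest nerve and glia gene 40.37. Of all rows, 75% were higher in the CvP. The part of these other cells in the *Kcn* values was not tested.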

How the data were processed

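RNA of the CvP and of the Epi was sequenced as 1 library each, from pools of at least 20 mice, with a TruSeq kit on a Genome Analyzer IIx. The submitters' processing notes name Bowtie 0.12.7 and the mm9 build, and the study's methods give ERANGE for the levels, with options not given in the sources used here. The RPKM values were used as deposited by the authors, and the deposited ratio of the tissues was not used. Members were the 82 rows whose symbol begins with *Kcn*. The members, the gene lists and the groups were chosen with earlier results of these data known.

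Ratios are quotients of RPKM, and medians of log2 ratios use 0.1 RPKM added to both values. Mapped reads per library came from the smallest steps of RPKM in 163 rows with a length of 0.1 kb, 28373653 in the CvP and 27908511 in the Epi, and 95.2% and 94.5% of low values in short rows were then whole reads to within 0.0907 reads. Reads of a gene are its RPKM times these totals and a length, the listed one or that of the longest GENCODE M1 transcript where that is shorter, which makes them approximate. The 95% intervals are exact (Clopper-Pearson) and cover counting error only. Where under 4 reads lie behind a value, the ratio is printed with its whole interval, where the plan had only its limit. Both steps were tested on simulated data.

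The genes named are every member that reached 1 RPKM in a library, 19 members chosen by name, of which *Kcna2* and *Kcnk9* have no row, and from each other list at most the 2 genes highest in the CvP. *Kcnf1*, *Kcnk15* and *Kcnv2* were added after their values were seen. The values of some named genes and 1 sequence are not reported here. RefSeq on GRCm38.p6 lists 94 protein-coding *Kcn* symbols, of which 81 have a row, and the remaining member is the noncoding *Kcnq1ot1*. Upstream and coding sequences were read from NCBI37 and GENCODE M1. Rows of other symbols gave the depth estimate, the median ratio, the shares set beside the members, and the values of the transport and marker lists. The alternatives tried were other limits, filters, pseudocounts and scalings. Python 3.11.15, numpy 2.4.6, pandas 2.3.3, scipy 1.17.1 and matplotlib 3.10.9 were used.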

Additional observations from a re-analysis of the deposited data

How the results depend on the processing

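No paired analysis was possible because there was a single pool per tissue and no value rests on a test. With a minimum CvP RPKM of 3 the study's limits were met by 9 members and 1120 rows, and with both libraries rescaled to a sum of 1000000 by 8 and 1382, against 5 and 435 as deposited. That rescaling also raises the levels, so more rows pass a fixed minimum. In an alternative chosen after seeing the data, which rescaled the ratios alone and kept the levels as deposited, 5 members and 558 rows met the limits. In it 11 members had a CvP/Epi ratio above 3, against 2051 of all rows. The median log2 ratio was then 2.25, against 0.74 over all rows. The count of 11 members with a CvP/Epi ratio above 3 became 5 with a minimum mean RPKM of 3, 45 with no minimum and 19 after rescaling the levels too. Over all rows the count of 1550 became 763, 4709 and 3012 in these settings. The count with an Epi/CvP ratio above 3 went from 0 to 6 with no minimum, to 1 with a fold of 2 and to 1 relative to the median ratio of all rows. For all rows it went from 202 to 847, 416 and 330. The members listed at 0 in the Epi went from 4 to 28 with no minimum, and all such rows from 118 to 1742. The median log2 ratio of 1.98 became 1.16 with a minimum mean of 0.5, 0.82 with a minimum of 3, 0.65 with none, 1.07 with a pseudocount of 1, 1.59 relative to the median ratio and 3.30 after rescaling the levels too, so its size depended on these choices while its sign did not. Over all rows the median of 0.47 became 0.51, 0.37, 0.50, 0.40, 0.08 and 0.80 in the same order. The ratio of the sums, 2.96, became 2.25 relative to the median ratio, 3.57 after rescaling and 3.54 without *Kcnk6*. In other alternatives chosen after seeing the data it was 1.66 without the 5 genes that met the limits and 4.49 without *Kcnk6* and *Kcnk7*. Rescaling reversed *Kcnj15*, to a ratio of 1.02, *Kcnk6*, to 1.09, and *Kcnc4*, to 1.06, while division by the median ratio reversed *Kcnj13*, to 0.952. The last 2 genes were named after their values were seen. The cause of these shifts was not tested beyond what each setting changes by construction. Genes of a few reads have wide intervals, and 1 library per tissue gives no measure of the spread between mice.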
